A study of Mus musculus with 12 samples.

Results

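The cholesterol and fatty acid synthesis genes were followed as a list of 30 genes chosen by symbol: enzymes of both pathways, the sterol-regulated transcription factors with 1 of their retention proteins, and a pair of sterol exporters. Each gene was represented by the brightest row of its symbol over 12 arrays, and 29 of the 30 were matched among 19938 measured genes. Acat2 was not analysed here. The cells were CD8+CD28low regulatory T cells, a suppressive T cell population, from C57Bl/6 mice of the genotypes wt (WT) and AIRE ko (KO). Aire is the thymic regulator that lets medullary epithelial cells display antigens of other tissues. Native cells were freshly isolated, and activated cells had been kept for 96 h in culture with antigen-presenting cells of an allogenic donor and an antibody against CD3. Each of the 4 groups held 3 arrays, titled as biological replicates. The sources used here do not give the number of mice behind an array, the purity of the cells or the design of the Aire allele, so the p-values measure the spread between these arrays. Activation, culture and contact with foreign cells came together in every activated array and cannot be told apart.

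Animal cells make cholesterol from acetyl-CoA through mevalonate, isoprenoid units, squalene and a series of sterols, and they make fatty acids from the same precursor through malonyl-CoA. SREBP-2 (gene Srebf2) drives the genes of the sterol pathway and SREBP-1 (Srebf1) those of fatty acid synthesis. Both precursors are held in the endoplasmic reticulum by INSIG proteins while sterols are plentiful, and are cut into active factors when sterols run short. Oxysterols act the other way through LXR receptors, which switch on the exporters Abca1 and Abcg1. T cells that enter division are known to raise membrane lipid synthesis through SREBPs and to lower LXR signalling.

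The values are log2 levels, so a difference of 1 is a doubling. The background mark of an array was the 95th percentile of its 1015 olfactory receptor genes, and a gene that did not exceed the mark was read as at background. Where a whole group, or 2 of its 3 arrays, was at background, the difference from a brighter group is given as a bound. Aire itself was at background on all 12 arrays, between 5.55 and 5.92, and does not check the genotype labels in these cells. Activated KO array 3 stood apart in measures that do not depend on a comparison of groups. Its background mark was 7.31, against 6.13 to 6.73 on the other 11 arrays, and its interquartile range of all values was 2.19, against 2.45 to 2.89. The counts and the genes whose KO values this array moves most are given with and without it. It also enters the estimate of spread that all comparisons share.

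The cells carried CD8 T cell markers, and Cd28 RNA was detected. Cd8a lay between 12.37 and 12.70 on the native arrays, 11.66 and 12.23 on activated WT and 10.77 and 12.06 on activated KO. Of 3 CD4 T cell markers Cd4 and Cd40lg were at background on all 12 arrays. The other, Zbtb7b, was at background on all 6 native arrays and was called higher on activation in both genotypes, with means of 5.76 and 7.67 in native and activated WT and 5.94 and 7.35 in native and activated KO cells. The mean level of 9 measured CD8 T cell markers was 11.77 to 11.84 on native WT arrays and 11.81 to 11.85 on native KO. It was 11.31 to 11.64 on activated WT and 10.61 to 11.66 on activated KO, with the lowest value on activated KO array 3. Of these 9, 0 were called on activation in WT cells. In KO cells 3 were called lower, beside 11.4% of all genes. Without activated KO array 3, 3 were called lower in each genotype, beside 11.1% of all genes in KO cells. Cd28 was between 11.03 and 11.97 on the native arrays, far above background. No cells with high CD28 were arrayed, so whether this level is low cannot be told. These arrays also do not measure the surface protein by which cells are called CD28low. Of 14 macrophage and dendritic cell markers, 11 were at background on all 12 arrays, among them Csf1r, Adgre1, Clec9a and Flt3. The others were Cd68, Itgax and Lyz2. Cd68 was above background on all 12 arrays, between 7.96 and 10.13. Itgax was above background on all native arrays and at background on all activated WT arrays. Lyz2 was 7.03, 6.32 and 5.24 on native WT and 9.62, 6.51 and 9.02 on native KO arrays, and at background on all activated arrays. The mean of those 14 was 5.67 to 5.87 on native WT, 5.85 to 6.12 on native KO, 5.68 to 5.77 on activated WT and 5.68 to 5.86 on activated KO arrays. Of 9 B cell markers 6 were at background throughout, including Ms4a1 and Pax5. Cd79b was above background on all 12 arrays, between 8.11 and 9.53. Cd79a exceeded background only on native KO array 1, at 6.53. Cd22, between 5.91 and 6.91, exceeded it on all native KO arrays and on some arrays of each other group. In each genotype 1 of the 9 was called lower on activation, beside 10.9% of all genes in WT and 11.4% in KO cells. Of 10 adipocyte and hepatocyte markers, tissues rich in these enzymes, 9 were at background throughout, including Adipoq and Alb. Of 6 NK cell markers none was at background throughout. Their mean was 7.49 to 8.03 on native WT arrays, 7.91 to 8.71 on native KO, 6.95 to 7.91 on activated WT and 7.40 to 8.28 on activated KO. On activation 1 was called higher and 1 lower in WT cells, beside 9.72% and 10.9% of all genes. In KO cells 0 were called higher and 2 lower, beside 8.72% and 11.4% of all genes. Of 10 neutrophil markers 1 was at background throughout. Their mean was 5.56 to 6.76 on native WT arrays, 6.04 to 8.27 on native KO, 5.53 to 5.73 on activated WT and 5.47 to 5.80 on activated KO. On activation 0 of the 10 were called in WT cells. In KO cells 5 were called lower, or 7 without array 3, beside 11.4% and 11.1% of all genes. The part of these marker lists in the differences below was not tested. In bulk RNA, fewer cells of a type and less RNA per cell cannot be told apart.

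Activation raised most of the list in both genotypes. In WT cells 23 of 29 genes rose and 2 fell, where 9.72% of all genes were called higher and 10.9% lower (limma, Benjamini-Hochberg adjusted p under 0.05 over 19938 genes). The median difference was 1.24 over the 29 genes and -0.02 over all genes. In KO cells 22 rose and 3 fell, where 8.72% of all genes were called higher and 11.4% lower. Their median was 1.21, beside 0.02 over all genes. Without activated KO array 3, 25 rose and 3 fell in KO cells against 13.4% and 11.1% of all genes, and the median became 1.44. The WT and KO comparisons share no arrays, though they share the estimate of spread, and 24 genes were called in both in the same direction. Acly was called in WT cells alone and Acss2 in KO cells alone. Whether these differ between the genotypes is answered by the interaction given further on.

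**Figure D1:**
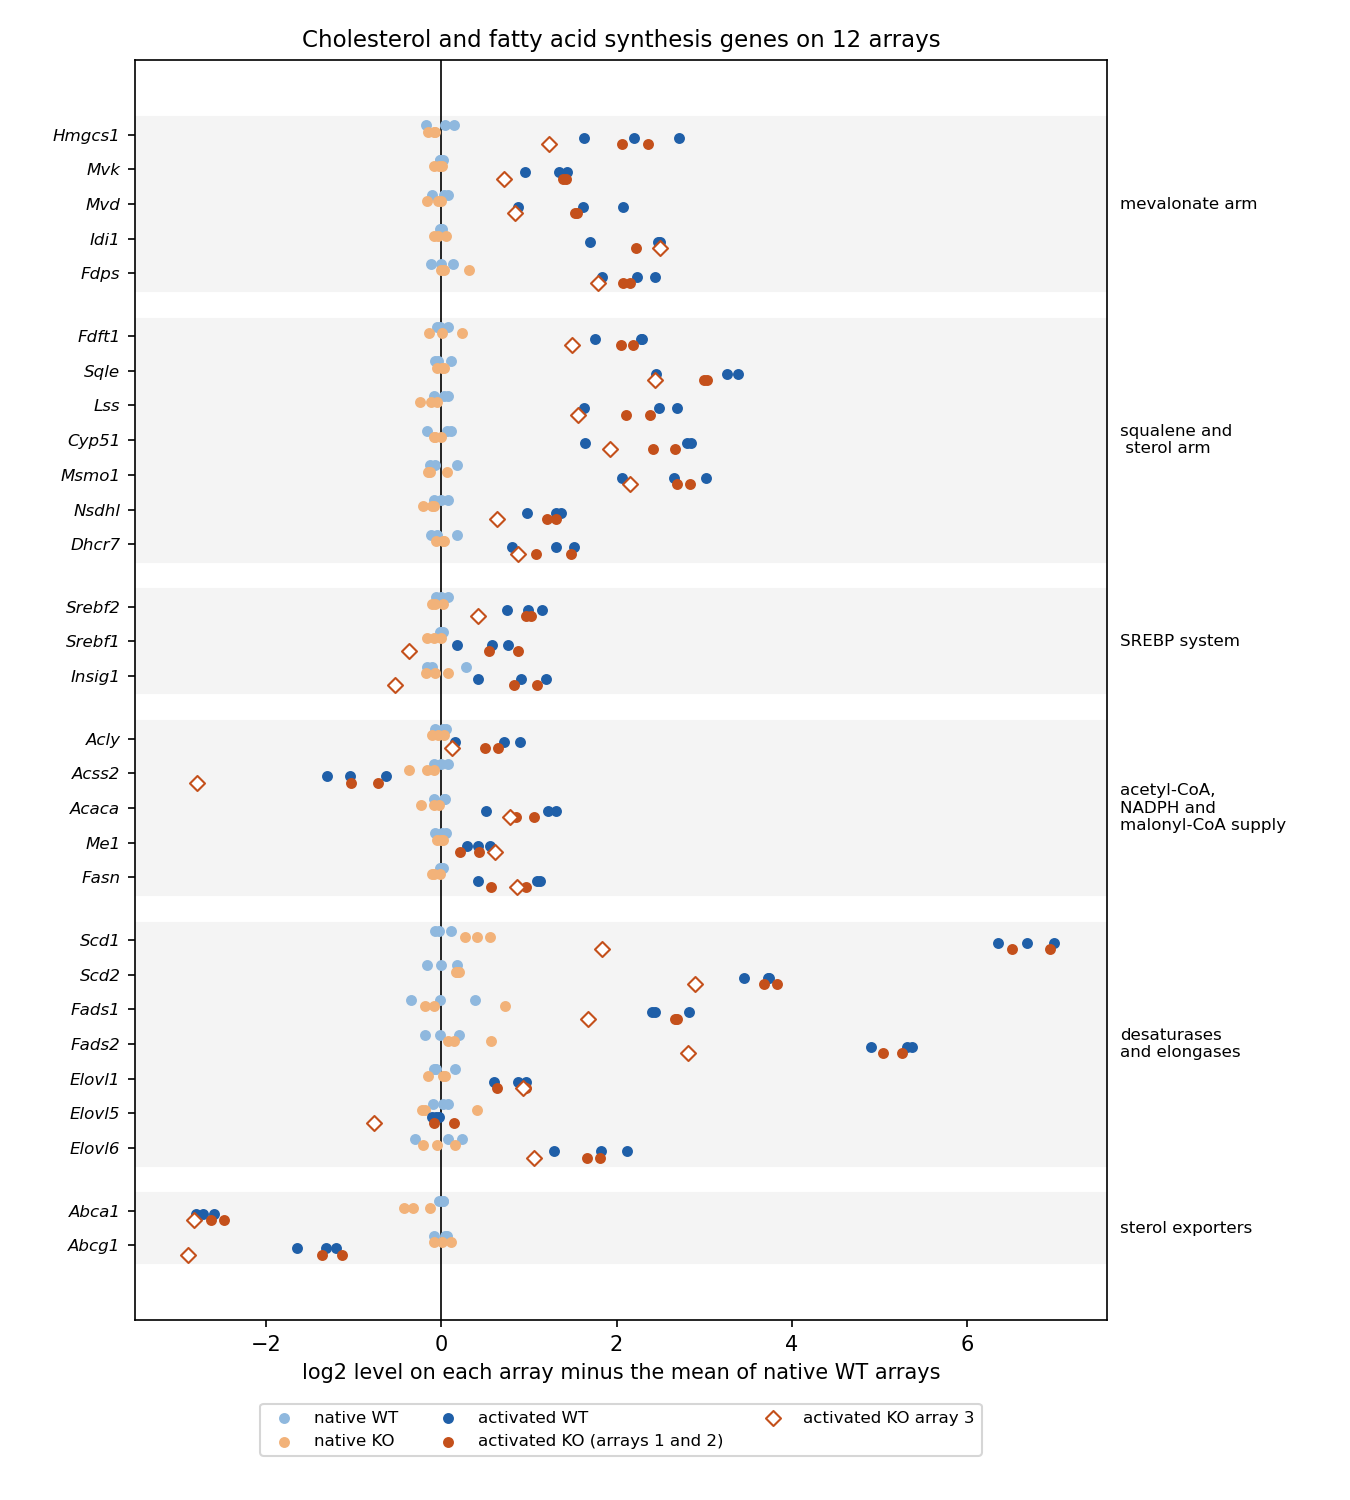
Log2 level of each of the 29 genes on each of the 12 arrays, minus the mean of the 3 native WT arrays, with the genes grouped by role. Points are single arrays, and the open diamonds are activated KO array 3. The enzymes of the mevalonate and squalene arms lie right of 0 on all 6 activated arrays, Abca1 and Abcg1 lie left of 0, and Scd1 on activated KO array 3 lies far below the other activated arrays.

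The arrays of the 3 native WT samples and the 3 activated WT samples did not overlap for 25 genes that were higher and 3 that were lower, beside 17.5% and 23.4% of all genes. In KO cells this held for 23 higher and 3 lower genes, beside 13.8% and 17.0% of all genes.

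The mevalonate arm, which turns acetyl-CoA into isoprenoid building blocks, rose as a whole: 5 of 5 measured genes were called higher in both genotypes. The median difference was 2.17 in WT and 1.89 in KO cells, or 2.0 in KO cells without array 3, where 5 of 5 were again called. Hmgcs1, the synthase that makes HMG-CoA, was 8.66, 8.56 and 8.34 on native WT arrays, 8.37, 8.45 and 8.44 on native KO, 10.72, 10.15 and 11.23 on activated WT, and 10.58, 10.88 and 9.75 on activated KO. All 6 activated arrays were above all 6 native ones. The difference was 2.18 ± 0.29 (SE, 3 arrays against 3) in WT cells, a 4.54-fold rise (adjusted p = 0.000245), and 1.98 ± 0.29 in KO cells (adjusted p = 0.000534), or 2.31 ± 0.24 without array 3.

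Idi1, the isomerase that makes dimethylallyl diphosphate, was 8.46, 8.43 and 8.45 on native WT arrays, 8.37, 8.50 and 8.41 on native KO, 10.94, 10.15 and 10.92 on activated WT, and 10.94, 10.67 and 10.94 on activated KO. Native values lay between 8.37 and 8.50, and the lowest activated value belonged to WT array 2. Idi1 rose 4.66-fold in WT (2.22 ± 0.18, adjusted p = 5.85e-06) and 5.35-fold in KO cells (2.42 ± 0.18, adjusted p = 3.56e-06), or 5.18-fold without array 3. A second, dimmer row named Idi1 gave 2.40 in WT and 2.56 in KO cells. Fdps, the farnesyl diphosphate synthase, rose by 2.17 ± 0.16 in WT and 1.89 ± 0.16 in KO cells (2.0 ± 0.17 without array 3). Mvk, the kinase that phosphorylates mevalonate, had the smallest WT difference of the arm, at 1.24 ± 0.18, and Mvd, the decarboxylase that follows, had 1.52 ± 0.26.

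The squalene and sterol arm carries the carbon from farnesyl diphosphate to cholesterol, and all 7 measured genes rose in both genotypes, with a median of 2.26 in WT and 2.16 in KO cells, or 2.39 in KO cells without array 3, where all 7 were again called. Sqle, the squalene epoxidase and a control point of the pathway, was 6.87, 6.72 and 6.69 on native WT arrays, 6.79, 6.71 and 6.77 on native KO, 10.02, 9.21 and 10.15 on activated WT, and 9.76, 9.79 and 9.20 on activated KO. The lowest activated arrays, WT array 2 and KO array 3, were still more than 2 log2 units above any native array. Sqle rose 8.21-fold in WT (3.04 ± 0.22, adjusted p = 2.49e-06) and 7.09-fold in KO cells (2.83 ± 0.22, adjusted p = 5.08e-06), or 8.10-fold without array 3 (3.02 ± 0.22), the largest difference of the arm.

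The enzymes before and after Sqle moved with it. Fdft1, which joins farnesyl units into squalene, rose by 2.10 ± 0.19 in WT cells, and its second row gave 1.64. Lss, which closes the sterol ring, rose by 2.26 ± 0.25. The demethylation steps Cyp51 and Msmo1 rose by 2.43 ± 0.28 and 2.58 ± 0.23. Nsdhl, a dehydrogenase of the same steps, and Dhcr7, the last reductase before cholesterol, had the smallest differences, at 1.22 ± 0.17 (Nsdhl) and 1.20 ± 0.19 (Dhcr7) in WT cells. The same differences in KO cells were 1.18 ± 0.17 and 1.15 ± 0.19, or 1.39 ± 0.12 and 1.28 ± 0.19 without array 3. Adjusted p-values of the arm were between 2.49e-06 and 0.000921 in WT cells.

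The mean level of the 7 sterol genes was 7.81 to 8.0 on native WT arrays, 7.82 to 7.84 on native KO, 10.20, 9.50 and 10.32 on activated WT, and 10.08, 10.05 and 9.47 on activated KO. The activated arrays of both genotypes thus held 1 low array each, WT array 2 and KO array 3. WT array 2 was the lowest of its group for 21 of the 23 genes called higher in WT cells (91.3%), where it was the lowest for 81.7% of all 1937 genes called higher. KO array 3 was the lowest for 18 of the 22 called higher in KO cells (81.8%), against 67.8% of 1739. Both arrays also had the highest background marks, at 6.73 and 7.31, and the smallest interquartile ranges, at 2.45 and 2.19. The part of these array properties in the differences was not tested.

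**Figure D2:**
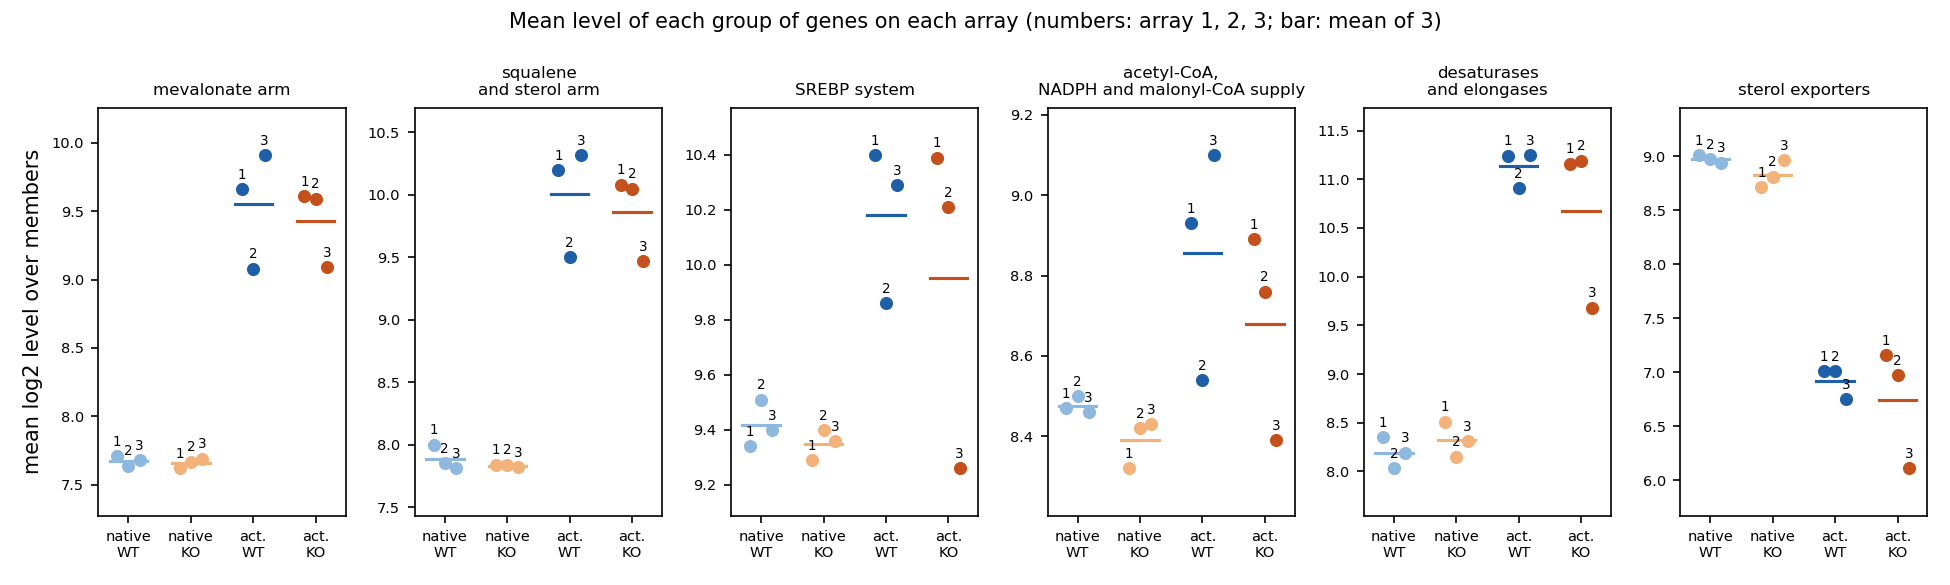
Mean log2 level of the genes of each role on each array, numbered 1 to 3 within its group, with a bar at the mean of 3 arrays. The vertical axes differ between panels and do not start at 0. Activated WT array 2 and activated KO array 3 lie lowest in their groups for the mevalonate arm and the squalene and sterol arm, and KO array 3 lies lowest for every role.

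Promoter windows show what letters these genes share just before their starts. RefSeq windows of GRCm38.p6, from 250 bases before to 50 after a start, were found for 22 of the 29 genes, and some genes have several. They were searched on both strands for the NF-Y box CCAAT, the GC box GGGCGG and the sterol regulatory element TCACNCCAC; no overlap between motifs was required or excluded. CCAAT was found in 18 of 22 genes (81.8%), where 41.06% of 27025 genes with a window held it. GGGCGG was found in 18 of 22 (81.8%), against 38.2%. TCACNCCAC was found in Hmgcs1 alone (4.5%), against 1.44%. All 9 mevalonate and sterol genes with a window held CCAAT and all 9 held GGGCGG. Of 9 fatty acid genes 6 held CCAAT and 5 held GGGCGG. The genes without the NF-Y letters were Elovl6, Fads2 and Acaca among the fatty acid genes, and the exporter Abca1. A match is a description of letters and not a site, and no match says only that the letters are not in this window.

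The 200 bases before the start are printed for 5 genes whose WT activation differences range from 1.24 (Mvk) to at least 4.96 (Fads2), with CCAAT (or ATTGG, its other strand) and TCACNCCAC in capitals. They lie at chr13:119690151-119690350 on the plus strand (Hmgcs1), chr5:114444069-114444268 on the plus strand (Mvk), chr13:8885406-8885605 on the plus strand (Idi1), chr8:64733579-64733778 on the minus strand (Msmo1) and chr19:10101504-10101703 on the minus strand (Fads2).
Hmgcs1: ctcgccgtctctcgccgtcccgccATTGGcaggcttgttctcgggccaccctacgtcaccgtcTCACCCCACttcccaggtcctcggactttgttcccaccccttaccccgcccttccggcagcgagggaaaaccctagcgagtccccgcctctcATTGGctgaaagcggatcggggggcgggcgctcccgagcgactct
Mvk: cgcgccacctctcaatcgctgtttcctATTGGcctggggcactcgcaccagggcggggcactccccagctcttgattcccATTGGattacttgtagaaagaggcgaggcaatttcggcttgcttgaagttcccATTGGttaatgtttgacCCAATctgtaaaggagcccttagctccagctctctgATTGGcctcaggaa
Idi1: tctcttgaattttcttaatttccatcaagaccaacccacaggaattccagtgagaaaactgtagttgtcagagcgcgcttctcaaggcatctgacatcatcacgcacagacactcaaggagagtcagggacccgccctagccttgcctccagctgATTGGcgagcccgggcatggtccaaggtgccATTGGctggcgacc
Msmo1: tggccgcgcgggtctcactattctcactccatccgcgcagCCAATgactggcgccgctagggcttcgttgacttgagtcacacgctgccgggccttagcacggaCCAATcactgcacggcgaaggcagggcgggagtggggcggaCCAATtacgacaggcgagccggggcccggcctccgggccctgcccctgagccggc
Fads2: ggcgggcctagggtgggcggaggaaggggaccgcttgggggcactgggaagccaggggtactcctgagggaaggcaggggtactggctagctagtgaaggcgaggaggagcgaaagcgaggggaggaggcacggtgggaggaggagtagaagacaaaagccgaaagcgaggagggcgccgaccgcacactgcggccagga
In these stretches Mvk held 5 CCAAT matches, Msmo1 3, Hmgcs1 2, Idi1 2 and Fads2 none. In its full window Hmgcs1 held 4. The 5 genes were picked for printing without a stated rule, so a relation between matches and differences was not tested. Of the 5, Mvk, with the most matches, had the smallest WT difference (1.24), and Fads2, with none, had the largest (at least 4.96). In Hmgcs1 the TCACNCCAC match began 137 bases before the start, between its CCAAT matches at 176 and 45.

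The SREBP system had a median difference of 0.83 in WT and 0.52 in KO cells, below those of both sterol synthesis arms, and 1 of its 3 genes was called higher in each genotype. Without activated KO array 3 the KO median was 1.02, and all 3 genes were called higher in both genotypes. Srebf2 was 9.95, 10 and 10.08 on native WT arrays, 9.90, 10.03 and 9.94 on native KO, 11, 10.76 and 11.16 on activated WT, and 10.98, 11.03 and 10.43 on activated KO. Every activated array was above every native one, with KO array 3 the nearest to them. Srebf2 rose 1.94-fold in WT (0.96 ± 0.16, adjusted p = 0.00116) and 1.81-fold in KO cells (0.86 ± 0.16, adjusted p = 0.00246), or 2.07-fold without array 3 (1.05 ± 0.12).

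Insig1, the protein that retains SREBP precursors and is itself a sterol-regulated gene, was 9.57, 10.01 and 9.62 on native WT arrays, 9.55, 9.81 and 9.66 on native KO, 10.92, 10.15 and 10.64 on activated WT, and 10.82, 10.56 and 9.20 on activated KO. In WT cells the groups did not overlap, and in KO cells array 3 lay below all native arrays. Insig1 did not pass the test in WT (0.83 ± 0.35, adjusted p = 0.121) or in KO cells (0.52 ± 0.35, adjusted p = 0.378). Without activated KO array 3, it was called in KO cells at 1.02 ± 0.21 (adjusted p = 0.00399), and in WT cells at 0.83 ± 0.19 (adjusted p = 0.00512). Srebf1 went the same way: 0.51 ± 0.25 in WT (adjusted p = 0.211) and 0.43 ± 0.25 in KO cells (adjusted p = 0.305), and without that array it was called at 0.51 ± 0.14 in WT (adjusted p = 0.0161) and 0.79 ± 0.15 in KO cells (adjusted p = 0.00306). One row per gene cannot separate the transcript forms of Srebf1.

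The genes that supply acetyl-CoA, malonyl-CoA and NADPH rose modestly, with 1 that went down. Fasn, the fatty acid synthase, was 9.56, 9.58 and 9.60 on native WT arrays, 9.47, 9.56 and 9.49 on native KO, 10.67, 10 and 10.71 on activated WT, and 10.54, 10.15 and 10.44 on activated KO. The groups did not overlap, and here KO array 3 lay between the other KO arrays. Fasn rose 1.84-fold in WT (0.88 ± 0.17, adjusted p = 0.00381) and 1.83-fold in KO cells (0.87 ± 0.17, adjusted p = 0.00416), or by 0.84 ± 0.19 without KO array 3. Acaca, the carboxylase that makes malonyl-CoA, rose by 1.01 ± 0.18 in both genotypes (1.07 ± 0.20 in KO cells without array 3), with 0.89 and 0.70 in its second row. Acly, which cuts citrate into acetyl-CoA, was called in WT cells at 0.59 ± 0.18 (adjusted p = 0.0413) and not in KO cells at 0.46 ± 0.18 (adjusted p = 0.106), and without array 3 it was called in KO cells at 0.61 (adjusted p = 0.0256). Its WT call was lost under 10 alternatives, 8 of them with 1 array left out (adjusted p from 0.0539 to 0.173). Me1, malic enzyme, was counted among the called genes but was at background on all 12 arrays, so no fold is given.

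Acss2, which makes acetyl-CoA from acetate, was 9.40, 9.56 and 9.48 on native WT arrays, 9.11, 9.39 and 9.31 on native KO, 8.43, 8.17 and 8.85 on activated WT, and 8.45, 8.76 and 6.69 on activated KO. All 6 activated arrays were below all 6 native ones, and the value on KO array 3 was under that array's background mark. The difference was -1.0 ± 0.41 in WT (adjusted p = 0.114) and -1.30 ± 0.41 in KO cells (adjusted p = 0.0423). Without activated KO array 3 it was -0.66 ± 0.18 in KO cells (adjusted p = 0.0182), and the WT difference was called at -1.0 ± 0.16 (adjusted p = 0.000603). The KO call was lost under 10 alternatives, 7 of them with another array left out (adjusted p from 0.0529 to 0.138). No other synthesis enzyme of the list was called lower, in either genotype.

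Scd1, Fads2 and Scd2, which code for desaturases, had the largest fitted differences of the list in both genotypes. Scd1, the stearoyl-CoA desaturase that makes monounsaturated fatty acids, was 5.04, 4.86 and 4.90 on native WT arrays, 5.48, 5.20 and 5.34 on native KO, 11.62, 11.28 and 11.93 on activated WT, and 11.45, 11.88 and 6.76 on activated KO. It was at background on all 6 native arrays and on KO array 3, and above 11 on the other 5 activated arrays. Scd1 rose in WT cells by at least 5.35, or at least 40.8-fold (fitted 6.68 ± 0.97, adjusted p = 0.000502). In KO cells the fitted rise was 4.69 ± 0.97 (adjusted p = 0.00519). With native arrays set to their background marks it was 3.73, which is not a lower bound, as array 3 was itself at background. Without array 3 Scd1 rose in KO cells by at least 5.37, or at least 41.3-fold (fitted 6.32 ± 0.18, adjusted p = 5.75e-09).

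Scd2, its paralogue, was 9.35, 9.16 and 9.01 on native WT arrays, 9.37, 9.34 and 9.35 on native KO, 12.91, 12.63 and 12.90 on activated WT, and 13, 12.85 and 12.06 on activated KO. No native array was near the activated ones, and KO array 3 was lower than the others by a smaller margin than for Scd1. Scd2 rose 12.5-fold in WT (3.64 ± 0.21, adjusted p = 3.64e-07) and 9.71-fold in KO cells (3.28 ± 0.21, adjusted p = 8.79e-07), or 11.9-fold without array 3 (3.57 ± 0.12). Scd1 and Scd2 are close copies, and how far their probes share signal was not tested.

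Fads2, the desaturase that starts the conversion of essential fatty acids into longer unsaturated ones, was 6.27, 5.88 and 6.05 on native WT arrays, 6.21, 6.14 and 6.63 on native KO, 11.39, 10.97 and 11.44 on activated WT, and 11.11, 11.33 and 8.89 on activated KO. In each native group 2 of 3 arrays were at background. Fads2 rose in WT cells by at least 4.96, or at least 31.2-fold (fitted 5.20 ± 0.49, adjusted p = 1.73e-05). In KO cells it rose by at least 4.06, or at least 16.6-fold (fitted 4.12 ± 0.49, adjusted p = 0.000119), and without array 3 by at least 4.83, or at least 28.5-fold (fitted 4.90 ± 0.19). Fads1, the desaturase that follows it, rose by 2.55 ± 0.31 in WT and 2.19 ± 0.31 in KO cells (2.53 ± 0.27 without array 3).

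Among the elongases, which add carbon pairs to fatty acids, the members differed. Elovl6, which lengthens palmitate, rose by 1.74 ± 0.24 in WT and 1.55 ± 0.24 in KO cells (1.77 ± 0.22 without array 3). Elovl1, which makes very long saturated chains, rose by 0.81 ± 0.13 and 0.87 ± 0.13 (0.83 ± 0.14 in KO cells without array 3). Elovl5, which lengthens the products of Fads2, was 11.49, 11.31 and 11.43 on native WT arrays, 11.81, 11.19 and 11.22 on native KO, 11.35, 11.38 and 11.30 on activated WT, and 11.33, 11.55 and 10.64 on activated KO. The groups overlapped in both genotypes. The difference was -0.07 ± 0.22 in WT (adjusted p = 0.907) and -0.23 ± 0.22 in KO cells (adjusted p = 0.57), and 0.03 ± 0.17 in KO cells without array 3.

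The sterol exporters went the other way. Abca1, which loads cholesterol onto apolipoproteins, was 8.38, 8.33 and 8.38 on native WT arrays, 7.93, 8.03 and 8.23 on native KO, 5.64, 5.76 and 5.56 on activated WT, and 5.88, 5.73 and 5.53 on activated KO. It was above background on every native array and at background on every activated one. Abca1 was lower in activated WT cells by at least 1.97 on the log2 scale, or at least 3.92-fold (fitted -2.71 ± 0.12, adjusted p = 9.03e-08). In KO cells it was lower by at least 1.5, or at least 2.82-fold (fitted -2.35 ± 0.12, adjusted p = 2.09e-07), and by at least 1.87 without array 3.

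Abcg1, which exports cholesterol to lipoprotein particles, was 9.64, 9.62 and 9.49 on native WT arrays, 9.49, 9.59 and 9.69 on native KO, 8.37, 8.26 and 7.93 on activated WT, and 8.44, 8.22 and 6.69 on activated KO. Activated arrays were below native ones throughout, with KO array 3 under its background mark. Abcg1 was 2.62-fold lower in activated WT cells (-1.39 ± 0.34, adjusted p = 0.0133) and 3.50-fold lower in activated KO cells (-1.81 ± 0.34, adjusted p = 0.00308), or 2.40-fold lower without array 3 (-1.26 ± 0.13). Leaving out activated WT array 3 gave -1.26 in WT cells with an adjusted p of 0.0559.

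**Figure D3:**
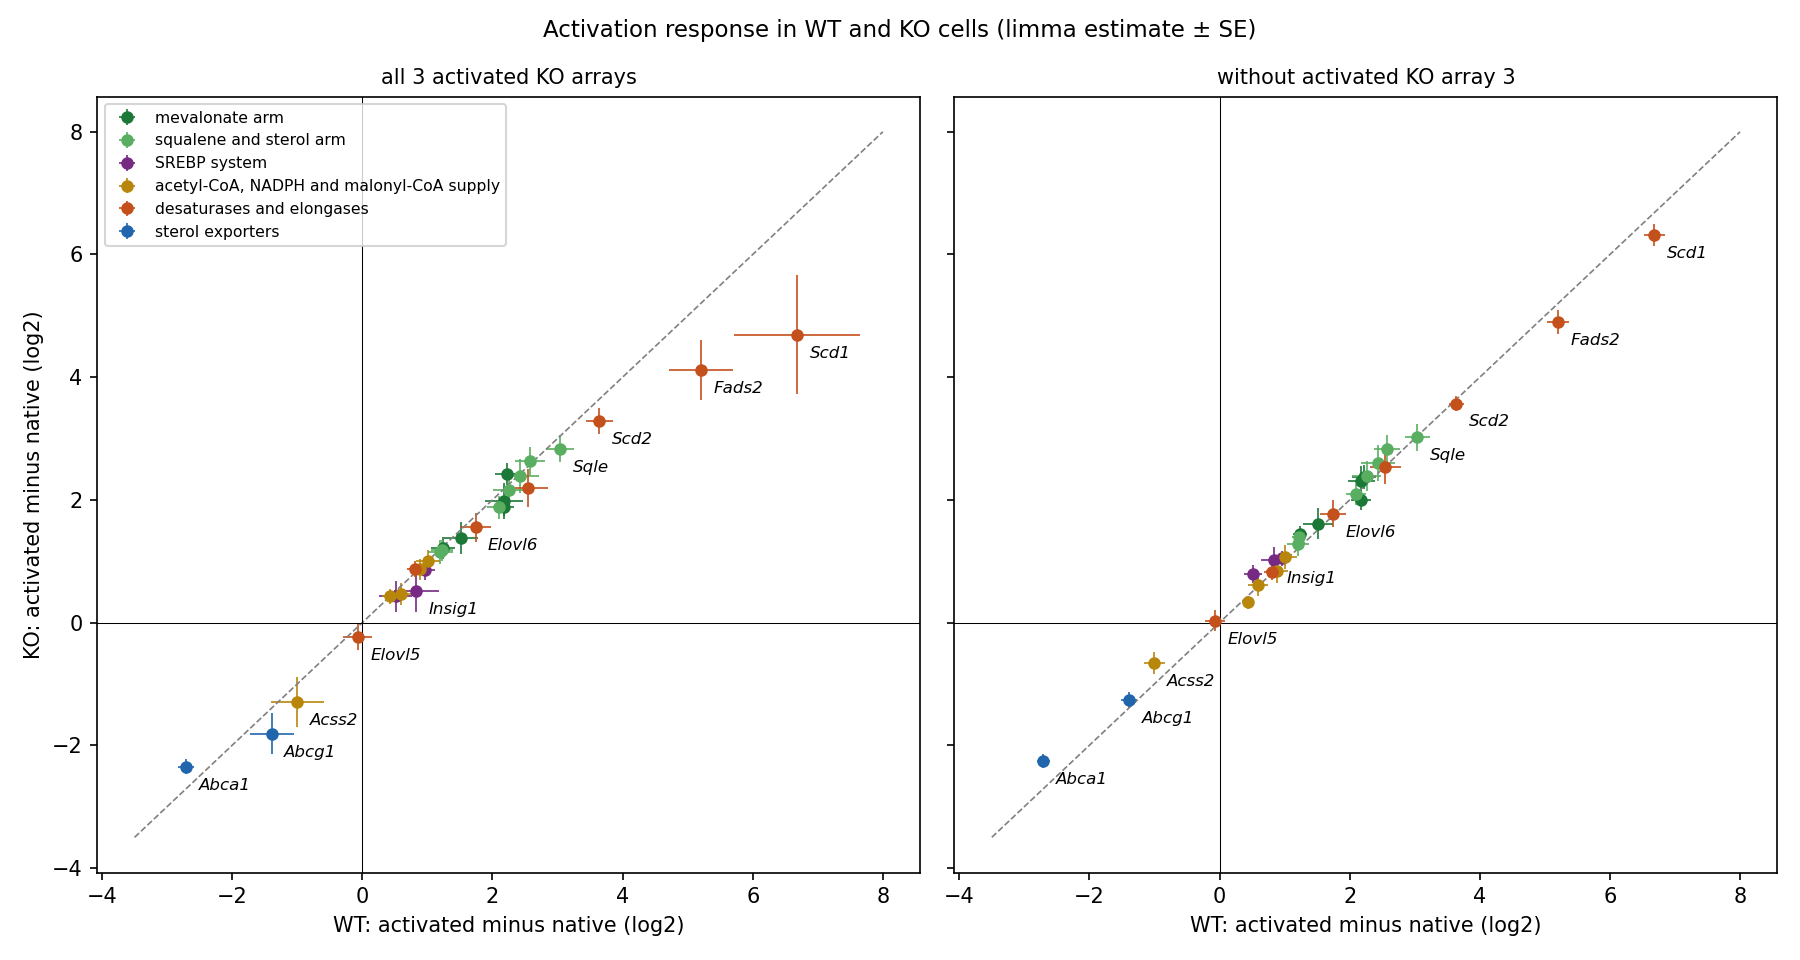
Activated minus native difference of each of the 29 genes in WT cells (horizontal axis) and in KO cells (vertical axis), in log2 units, as limma estimates with bars of 1 SE and coloured by role. The dashed line marks equal differences. With all arrays Scd1 (6.68 and 4.69) and Fads2 (5.20 and 4.12) lie under the line, and without activated KO array 3 they lie close to it (6.32 and 4.90 in KO cells).

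Other genes of the same pathways were counted from 4 further lists. Of 9 measured among 12 other sterol synthesis enzymes, 6 were called higher and 1 lower in both genotypes, with and without activated KO array 3, and the median was 0.63 in WT cells. Over all genes the shares called higher and lower were, as above, 9.72% and 10.9% in WT, 8.72% and 11.4% in KO, and 13.4% and 11.1% in KO cells without that array. The 1 lower gene of 9 is about the share of all genes. Hsd17b7, a sterol ketoreductase, rose by 1.71 ± 0.27 in WT cells, and Tm7sf2, a sterol reductase, by 1.35 ± 0.23. Pmvk, the second mevalonate kinase, was at background in native cells and rose by at least 1.37. Ggps1, which diverts isoprenoids to geranylgeranyl diphosphate and so away from sterols, fell by 0.91 on the log2 scale (SE 0.13, adjusted p = 0.000382).

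Of 12 measured among 16 genes of sterol sensing and uptake, 5 were called higher and 2 lower in both genotypes, and 6 and 2 in KO cells without activated KO array 3. The higher calls were more frequent than over all genes (9.72% in WT), while the 2 lower ones are near the 10.9% of all genes. Stard4, a cytosolic sterol carrier, rose by 2.26 ± 0.22 in WT cells, and the lipoprotein receptors Lrp8 and Scarb1 by 2.18 ± 0.24 and 1.98 ± 0.29. Mylip, the LXR-induced ligase that removes lipoprotein receptors, was 9.75, 9.88 and 9.64 on native WT and 7.82, 7.48 and 7.16 on activated WT arrays. It was 4.83-fold lower in activated WT cells (-2.27 ± 0.33, adjusted p = 0.000491) and 4.57-fold lower in activated KO cells (-2.19 ± 0.33), where array 3 was under its background mark. Without that array the KO difference was -1.69 ± 0.17. Mbtps1, the protease that makes the first cut in SREBP precursors, fell by 0.76 on the log2 scale (SE 0.16, adjusted p = 0.00529).

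Mir33 is a microRNA gene inside Srebf2 that is known to repress Abca1. Its mature 5p form lies at chr15:82198127-82198147 on the plus strand of GRCm38.p6, within the span of Srebf2 (82147269 to 82205379), and is shown with its seed in capitals.
miR-33-5p: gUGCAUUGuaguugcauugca
The row for Mir33 was at background on all 12 arrays, between 4.62 and 4.88. Which form of the RNA this row measures was not tested.

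Of 25 measured among 27 other fatty acid synthesis genes, 13 were called higher and 1 lower in WT cells and 12 and 0 in KO cells (13 and 0 without activated KO array 3), beside 9.72% and 10.9% of all genes in WT and 8.72% and 11.4% in KO cells (13.4% and 11.1% without that array). In this list 10 were at background on all 12 arrays, among them Scd3, Scd4, Acacb and Elovl2. Slc25a1, the carrier that brings citrate out of mitochondria, rose by 2.12 ± 0.22 in WT cells. Mid1ip1, an activator of acetyl-CoA carboxylase, rose by 1.23 ± 0.21, and Me2, a mitochondrial malic enzyme, by 1.16 ± 0.21. Elovl7 was called lower in WT cells (-1.08 ± 0.33, adjusted p = 0.0381) and not in KO cells (-0.83 ± 0.33, adjusted p = 0.107, or -0.55 ± 0.32 and adjusted p = 0.271 without array 3).

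Of 13 measured among 17 genes of the LXR pathway and sterol export, 2 were called higher and 2 lower in WT cells and 2 and 4 in KO cells. Beside 9.72% and 10.9% of all genes in WT and 8.72% and 11.4% in KO cells, the WT counts are near the background. The median of the list was -0.21 in WT cells. Abca7, a relative of Abca1, was called lower at -0.69 ± 0.21 and Apoe, a sterol-carrying apolipoprotein, at -0.53 ± 0.13. Plin2, which coats lipid droplets, rose by 1.65 ± 0.37, and Lpcat3, a phospholipid-remodelling enzyme that LXR also induces, by 0.90 ± 0.23. Nr1h3, the gene of LXR alpha, was at background on all 12 arrays. Nr1h2, the gene of LXR beta, was not analysed here, so a lack of LXR receptors is not shown.

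The comparison of genotypes asked whether the list differs between KO and WT cells in either state. In native cells limma called 0 of 29 genes and 0.0% of all genes, and 131 of 19938 genes had an unadjusted p under 0.05. The median difference, KO minus WT, was -0.04 over the list and -0.02 over all genes. For 26 of 29 genes the 95% interval lay within 1 log2 unit of 0, that is within 2-fold. The exceptions were Acss2, Scd1 and Fads2, and without activated KO array 3 in the fit the interval lay within 1 log2 unit for 29 of 29 genes (Acss2 -0.56 to 0.14, Scd1 0.05 to 0.76 on levels at background, Fads2 -0.11 to 0.63).

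The native groups did not overlap for 1 gene that was higher in KO and 2 that were lower, beside 2.11% and 4.91% of all genes. The higher one was Scd1, which was at background in both groups. The lower ones were Acss2 (-0.21 ± 0.41) and Abca1, and Abca1 was the 1 gene of the list with an unadjusted p under 0.05. Its values, given above, were 8.33 to 8.38 on native WT and 7.93 to 8.23 on native KO arrays. The limma difference was -0.30 ± 0.12 (adjusted p = 1.0). Abca1 was lower in KO in 3 of 3 pairs of same-numbered arrays, by 0.45, 0.29 and 0.15 on the log2 scale. This is not particular to it: 6 of the 29 genes were lower in all 3 pairs (Lss, Nsdhl, Srebf1, Acss2, Fasn and Abca1) and 3 were higher (Fdps, Scd1 and Scd2), or 20.7% and 10.3%, beside 17.2% and 8.95% of all genes. Over all alternatives it stayed between -0.38 and -0.23, with adjusted p between 0.622 and 1.0.

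Same-numbered native arrays deviated from their group means together. Blocking on that number within the 6 native arrays, an alternative chosen after the data were seen, called 14 of 19938 genes and 0 of the 29, of which 3 had an unadjusted p under 0.05. In it Scd1 differed by 0.41 ± 0.08 (adjusted p = 0.24, at background in both groups), Abca1 by -0.30 ± 0.08 (adjusted p = 0.622) and Acss2 by -0.21 ± 0.08 (adjusted p = 0.825). The mean of 10 neutrophil markers was higher on some native KO arrays, at 6.04 to 8.27 against 5.56 to 6.76 on native WT arrays. The 6 NK cell markers had a median KO minus WT difference of 0.59 in native cells. The part of either list in these differences was not tested.

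In activated cells limma called 0 of 29 genes and 0.0% of all genes between KO and WT, with 87 of all genes and 0 of the 29 at an unadjusted p under 0.05. Of the 29 genes 26 were lower in KO by their means, with a median of -0.17 beside -0.01 over all genes. Without activated KO array 3, 19 of 29 were higher and the median was 0.04. Again 0 of 29 and 0.0% of all genes were called, and 654 genes had an unadjusted p under 0.05. The groups did not overlap for 0 genes of the list in either direction, beside 0.858% of all genes higher and 0.888% lower.

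Same-numbered activated arrays were also compared within each number. Deviations from the group means were correlated for number 1 (r = 0.694) but not for numbers 2 and 3 (-0.017 and -0.013). Pairs 2 and 3 are thus matched by number alone. In pair 1, 19 of 29 genes were lower in KO, with a median of -0.07. In pair 2, 3 of 29 were lower and the median was 0.36. In pair 3, 26 of 29 were lower and the median was -0.78, the lowest being Scd1 at -5.17. The medians over all genes were -0.01, 0.03 and -0.03. The pairs went in both directions. KO minus WT was high in the pair that holds WT array 2 and low in the pair that holds KO array 3. The part of single arrays in the difference was not tested.

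Scd1 was the gene with the lowest fitted difference in activated cells, at -1.58 ± 0.97 (95% interval -3.71 to 0.55), and without KO array 3 its difference was 0.05 (-0.34 to 0.45). Fads2 went from -0.83 ± 0.49 to -0.05, and Acss2 from -0.51 to 0.13. With all arrays the interval lay within 1 log2 unit of 0 for 24 of 29 genes, the exceptions being Insig1, Acss2, Scd1, Fads2 and Abcg1. Without KO array 3 it did for 29 of 29, with differences between -0.11 (Fasn) and 0.20 (Srebf1).

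**Figure D4:**
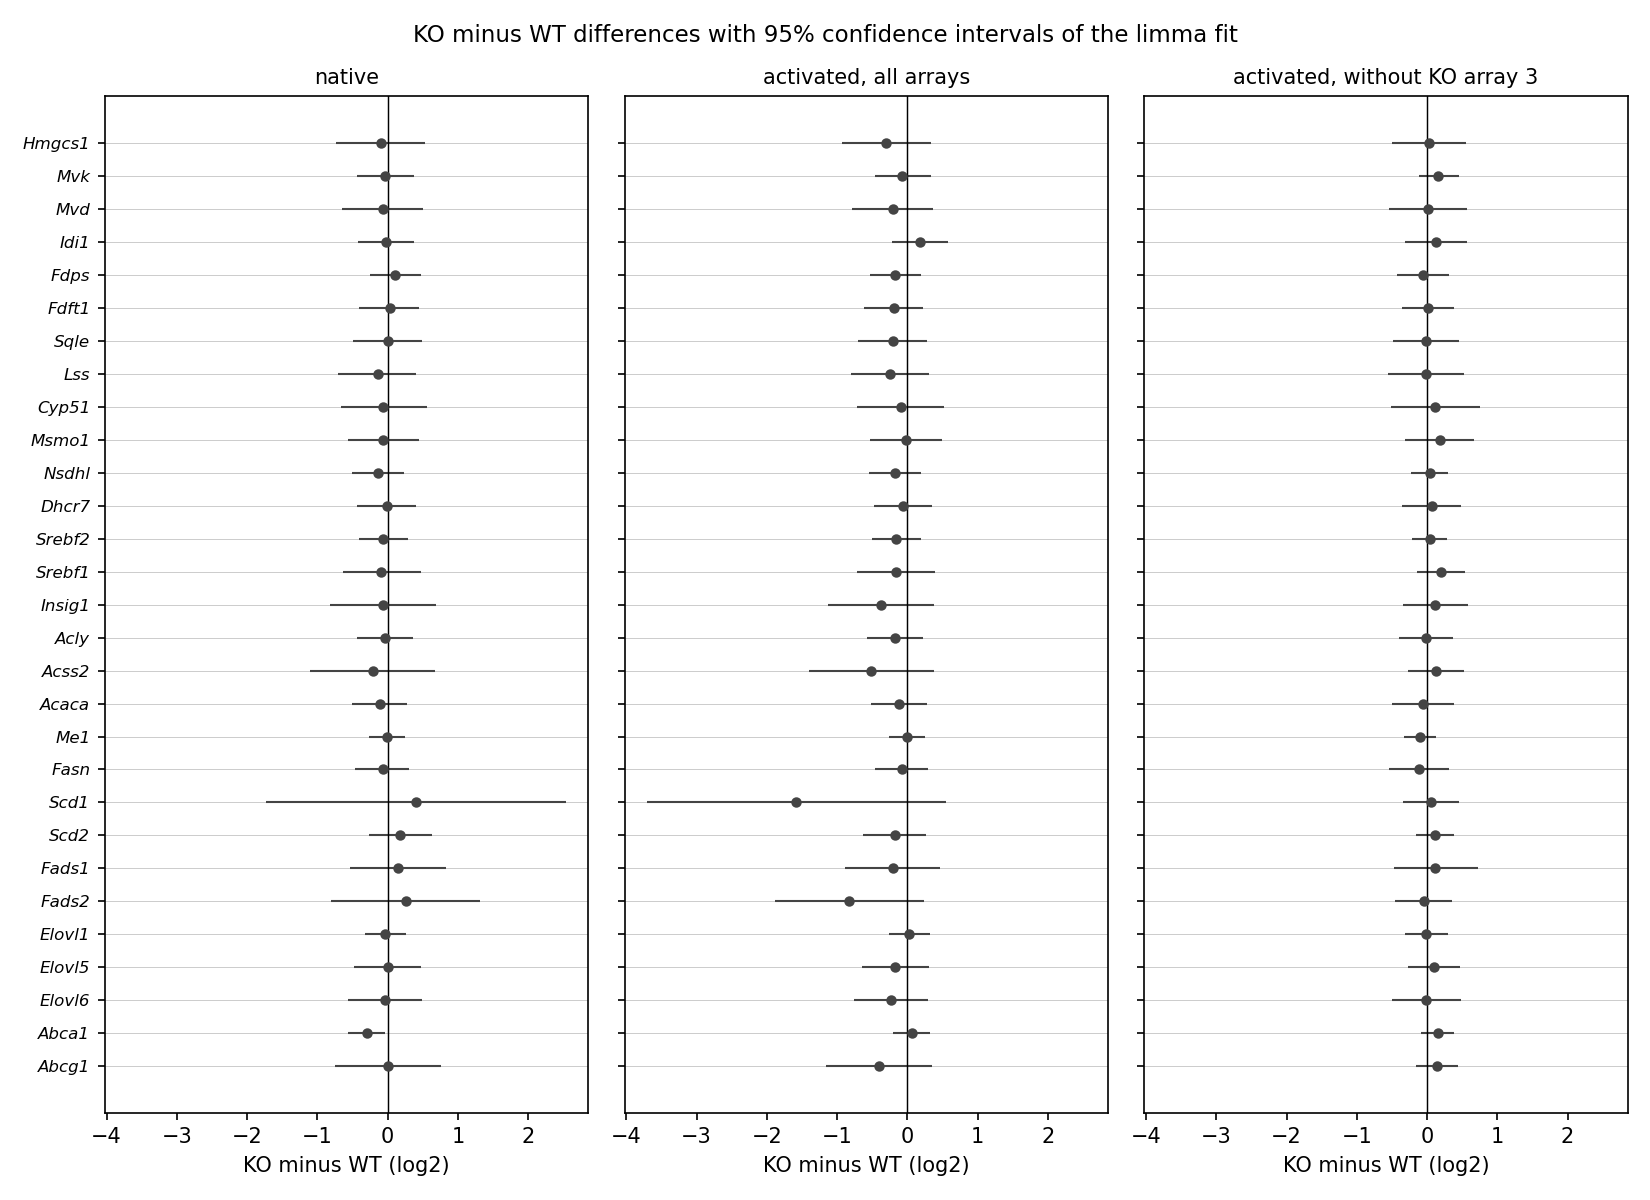
KO minus WT difference of each of the 29 genes in native cells, in activated cells with all arrays and in activated cells without KO array 3, in log2 units, with 95% confidence intervals of the limma fit. The interval of Abca1 in native cells (-0.56 to -0.04, unadjusted) leaves out 0. The interval of Scd1 in activated cells runs from -3.71 to 0.55 with all arrays and from -0.34 to 0.45 without KO array 3.

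The interaction asked whether the activation difference itself depends on the genotype. In limma 0 of the 29 genes and 0.0% of all genes were called, and 86 of all genes and 0 of the 29 had an unadjusted p under 0.05. The median interaction, KO minus WT, was -0.12 over the list and 0.01 over all genes, and 0.09 over the list without activated KO array 3, where again 0.0% of all genes were called. For Scd1 it was -1.99 ± 1.38 (95% interval -5.00 to 1.03) with all arrays and -0.35 ± 0.24 without that array. For Abca1 it was 0.36 ± 0.17 (unadjusted p = 0.0546, adjusted p = 1.0) and 0.45 ± 0.15 (unadjusted p = 0.0111, adjusted p = 1.0), on levels that were at background in activated cells. For 22 of 29 genes the interval of the interaction lay within 1 log2 unit of 0, and for 28 without KO array 3. For Acly and Acss2, each called on activation in 1 genotype, it was -0.12 ± 0.26 and -0.30 ± 0.58, so a difference between the genotypes was not shown.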

How the data were processed

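RNA of 12 samples was hybridised to Affymetrix whole-transcript arrays, and the authors deposited log2 expression values, for which the submitters' processing notes name Partek and RMA without version or options. RMA compresses differences near background. Of 35556 rows, 21789 had 1 symbol, and 19938 genes remained after symbols were updated through GRCm38.p6 identifiers and the brightest row per gene was kept. The 30 genes, their roles and the further lists were chosen with earlier results of these data known. All 30 were to be described, and from each further list up to 3 called genes per direction with the largest WT difference and groups that did not overlap. Group means over 12 arrays were fitted with limma 3.58.1 in R 4.3.3 (eBayes, no trend), with the Benjamini-Hochberg adjustment over all 19938 genes and calls at 0.05, and the code was tested on simulated data. Errors are SE of the fit. Array numbers paired the native arrays (r = 0.58, 0.396 and 0.157 between same-numbered WT and KO arrays). Among activated arrays they paired number 1 (0.694) but not numbers 2 and 3 (-0.017 and -0.013), which hold WT array 2 and KO array 3. The sample descriptions number native arrays 1, 3 and 5 and activated arrays 2, 4 and 6. If these numbers mark separate experiments, experiment and state cannot be told apart. The number of arrays limits the precision. Alternatives were other scalings, rows, filters, variance models, weights, blocks and each array left out.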

Additional observations from a re-analysis of the deposited data

How the results depend on the processing

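The counts of called genes kept their size under every alternative run. Of 29 genes, 25 were called on activation in WT cells, and 22 to 28 when each array was left out in turn. In KO cells 25 were called, and 23 to 28 with an array left out. Between genotypes and for the interaction 0 were called under each of these. With the array number as a replicate block over all 12 arrays 25 were called in WT and 24 in KO cells, and 0 between genotypes. Only Abcg1, Acly, Acss2, Insig1, Me1 and Srebf1 changed their side of the threshold on activation, and no called difference changed sign. Centring each array on its median moved all genes' calls in KO cells from 1739 higher and 2263 lower to 1206 and 2397, and the list to 22 higher and 2 lower. Signal close to background limits Me1, Scd1, Fads2 and Abca1.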
